A study of Mus musculus with 16 samples.

Results

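The genes described here are 29 genes in common use as markers of the cerebral cortex, the hippocampus and the striatum, measured in the hypothalamus of mice. They were taken by name from a given list (Drd1 is Drd1a in the files) and were found on 44 of the 55681 probes of the array, which cover 34607 genes. Of the 29 genes, 17 (20 probes) mark cortex and hippocampus and 12 (24 probes) mark striatum. A gene was tested if 1 of its probes stood well above background in 8 or more of the 16 samples, which held for 26 of the 29: 14 of the 17 cortex and hippocampus genes and all 12 striatum genes.

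The samples came from 8 control mice and 8 mice labelled KO chimera, with 1 array per mouse. The strain field reads lethally irradiated (950 Rad) C57BL/6J for all 16 mice, and KO chimeras alone have a marrow donor, Adrb1tm1BkkAdrb2tm1Bkk/J, a strain without the beta-1 and beta-2 adrenergic receptors. Marrow was given once behind the eye at a stated ratio of 1:4 (donor strain to C57BL/6J), and tissue was taken after 2 to 3 months. The treatment text is the same for both groups, so which marrow the control mice received, if any, is not settled by the labels, and the age of the mice is not stated in them. The recipients' own brain cells carry both receptor genes intact. The study's title sets the work in the question of how loss of sympathetic drive acts on bone, hypothalamus and gut.

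Cortical and hippocampal projection neurons release glutamate, load it into vesicles with the transporter encoded by Slc17a7, and owe their identity to transcription factors such as Tbr1, Fezf2, Cux2 and the Neurod family. The principal cells of the striatum are inhibitory spiny neurons that respond to dopamine: the direct-pathway cells carry the Drd1 receptor and the peptide gene Tac1, and the indirect-pathway cells carry Drd2, Adora2a, Gpr6 and the peptide gene Penk. Several of these genes, among them Penk, Tac1 and Cck, are also used by neurons of the hypothalamus itself, and others by the neighbouring thalamus.

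All levels below are log2 of the array signal minus the 75th percentile of the same array, so 0 is the signal of a fairly bright probe, and all differences are KO chimera minus control on that log2 scale. A level of a gene is compared between animals only, since probes of different genes differ in brightness. Between 27276 (KO chimera replicate 1) and 43248 (control replicate 8) of the 59305 non-control spots of an array were well above background. Both of these arrays were on slide 4, and the scanner's R2 of the spike-in controls was 0 for control replicate 8 and 0.966 or more on the other arrays. Without slide 4 (an alternative chosen after seeing the data) 1 of the 2 calls below remained, that of Cux2, and Rtn4r had a limma adjusted p of 0.0692. Of 30 defining genes of the hypothalamus 29 were tested and 27 were well above background on all 16 arrays; 0 of the 29 passed the test below (9 at an unadjusted p under 0.05 in limma). Each sample is bulk tissue, in which fewer cells of a type and less RNA per cell cannot be told apart. Each p-value of a group difference sets that difference against the spread between these animals.

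Of the 14 cortex and hippocampus genes tested, 2 were lower in KO chimeras, Cux2 and Rtn4r, and 0 were higher (limma, Benjamini-Hochberg adjusted p under 0.05 over all genes). The list was chosen with earlier results of these data known, so its counts are not those of an unselected list. Over all 24363 genes tested, 3.8% passed in either direction, 1.03% higher and 2.77% lower. At an unadjusted p under 0.05 the count was 6 of the 14, against 20.7% of all genes. The median difference of the 14 genes was −0.27, with 10 negative and 4 positive values, and over all genes the median was 2e-04. Of the 12 striatum genes, 0 passed (2 at an unadjusted p under 0.05), and the median difference was 0.029, with 5 negative and 7 positive values. The 8 control and the 8 KO chimera values overlapped in each of the 26 genes, while they did not overlap for 0.965% of all genes tested.

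**Figure D1:**
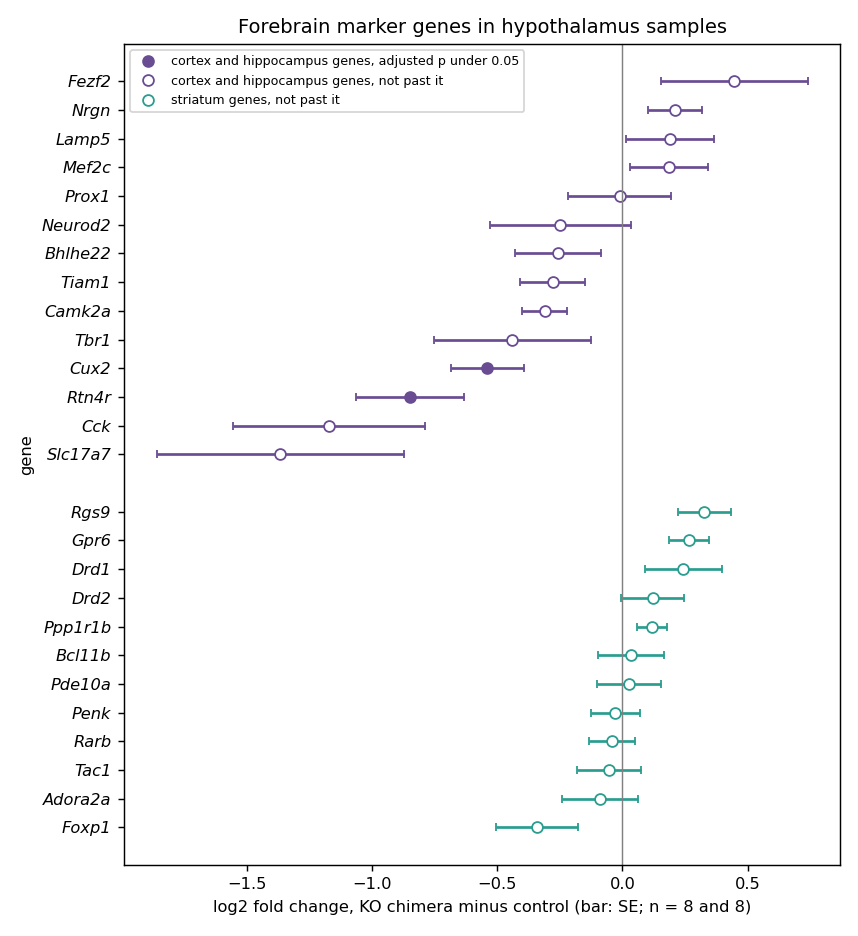
Log2 fold change (x axis, KO chimera minus control, bars show the SE, 8 mice per group) of the 26 tested genes (y axis), cortex and hippocampus genes in purple and striatum genes in green. Filled points mark the 2 genes past the threshold, Cux2 and Rtn4r; the cortex and hippocampus genes spread from −1.37 (Slc17a7) to 0.45 (Fezf2) and the striatum genes from −0.34 (Foxp1) to 0.33 (Rgs9).

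Before the values, the DNA just upstream of 4 of these genes is shown: the 2 genes past the threshold, Cux2 and Rtn4r, the peptide gene Cck, which had the second largest difference, and Gpr6, a striatum gene with the lowest p-value of its group. They are the 250 bases before the annotated start, 5′ to 3′, from RefSeq on build GRCm38.p6: chr5:122049852-122050101 on the minus strand for Cux2, chr16:18127392-18127641 on the plus strand for Rtn4r, chr9:121495695-121495944 on the minus strand for Cck and chr10:41072291-41072540 on the minus strand for Gpr6. Capitals mark matches to any of 5 letter strings searched on both strands: TGACGTCA (the cAMP response element), TGCGTCA (an element close to it in letters), the E-boxes CACGTG and CAGATG, and TATAAA. None of these strings contains another.
Cux2: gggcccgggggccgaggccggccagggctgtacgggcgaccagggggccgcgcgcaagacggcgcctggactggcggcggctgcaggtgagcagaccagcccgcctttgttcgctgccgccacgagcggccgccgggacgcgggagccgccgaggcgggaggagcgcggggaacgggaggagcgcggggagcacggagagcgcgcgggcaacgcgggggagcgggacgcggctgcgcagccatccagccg
Rtn4r: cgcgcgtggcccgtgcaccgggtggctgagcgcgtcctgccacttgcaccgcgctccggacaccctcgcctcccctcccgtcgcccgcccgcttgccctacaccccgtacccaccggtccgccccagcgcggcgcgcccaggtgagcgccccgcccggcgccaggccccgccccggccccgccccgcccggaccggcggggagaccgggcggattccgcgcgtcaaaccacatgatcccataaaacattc
Cck: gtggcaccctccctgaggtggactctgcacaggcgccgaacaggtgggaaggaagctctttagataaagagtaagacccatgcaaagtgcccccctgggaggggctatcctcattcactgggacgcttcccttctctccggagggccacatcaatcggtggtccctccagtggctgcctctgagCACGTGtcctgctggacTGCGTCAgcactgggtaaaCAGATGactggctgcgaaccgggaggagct
Gpr6: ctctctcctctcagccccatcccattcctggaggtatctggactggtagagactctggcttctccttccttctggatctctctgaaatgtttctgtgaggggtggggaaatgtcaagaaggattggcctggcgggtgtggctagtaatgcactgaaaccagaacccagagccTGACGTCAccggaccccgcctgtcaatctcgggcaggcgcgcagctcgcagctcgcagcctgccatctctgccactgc

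The Gpr6 window holds TGACGTCA starting at position −78, where −1 is the last base before the start, and 1.55% of all 32851 windows of this length hold that string. The Cck window holds CACGTG at −66, TGCGTCA at −49 and CAGATG at −30, which occur in 6.02%, 1.75% and 14.4% of all windows. RefSeq's table holds 2 starts for Cux2, and the window shown belongs to 1 of them. This window and that of Rtn4r hold 0 matches, which says only that these letters are not in these windows, while the window of the other Cux2 start holds CAGATG and TATAAA. The windows shown of Cux2 and Rtn4r are rich in G and C (80.0% and 77.2%, against 60.0% for Cck, 58.4% for Gpr6 and a median of 52.4% over all windows). TATAAA was found in 12.4% of all windows and in none of the 4 shown. Among all 34 windows of the 24 genes that matched the table by symbol, TGACGTCA occurred in 1, TGCGTCA in 3, CACGTG in 2, CAGATG in 10 and TATAAA in 5. A match is a description of the sequence and not a site at which a factor was measured.

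Cux2, a homeobox transcription factor of upper-layer cortical neurons, was lower in KO chimeras. Its tested probe lies at chromosome 5, 122308503 to 122308562 (mm9, as are all probe positions here). The signal ranged from 0.13 to 1.09 with a median of 0.54 in control mice and from −0.41 to 0.51 with a median of 0.030 in KO chimeras. All 8 KO chimeras lay below the control median and 5 of them below the lowest control mouse. The means were 0.57 ± 0.32 and 0.032 ± 0.30 (SD, n = 8 each), a difference of −0.54 ± 0.15 (SE; limma adjusted p = 0.0488). The other Cux2 probe (122310226 to 122310285) gave −0.46 (limma adjusted p = 0.0663 when every probe was tested), in the same direction. Within the 5 slides that held both groups the difference was −0.41, −0.68, −0.016, −0.73 and −0.51, and within the 2 scan days −0.44 and −0.64. The call stands close to the threshold: with each mouse left out in turn Cux2 passed in 2 of 16 fits (without control replicate 4 or KO chimera replicate 1), at an adjusted p of 0.0341 to 0.0969.

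Rtn4r encodes the Nogo receptor, a membrane protein of projection neurons that binds myelin proteins and restrains axon growth. It was also lower in KO chimeras (chromosome 16, 18152423 to 18152482). Control mice ranged from −1.69 to −0.29 with a median of −1.01, and KO chimeras from −2.57 to −1.17 with a median of −1.81. All 8 KO chimeras were below the control median, 5 of them below the lowest control mouse, and control replicates 5 and 7 were the highest of all 16 at −0.29 and −0.36. The difference was −0.85 ± 0.21 (SE, limma adjusted p = 0.0393), from −0.95 ± 0.45 to −1.80 ± 0.47 (SD, n = 8 each). Within the slides it was −0.36, −0.85, −0.93, −0.88 and −0.95, and within the scan days −0.93 and −0.77. With each mouse left out in turn Rtn4r passed in 5 of 16 fits (those without control replicate 4, 6 or 8, and those without KO chimera replicate 3 or 7), at an adjusted p of 0.0253 to 0.0789. In an exact permutation test of the group labels, adjusted over all genes, Rtn4r gave p = 0.0512 and Cux2 p = 0.0564, and with slide as a fixed block in limma Rtn4r passed while Cux2 did not (adjusted p = 0.0638).

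**Figure D2:**
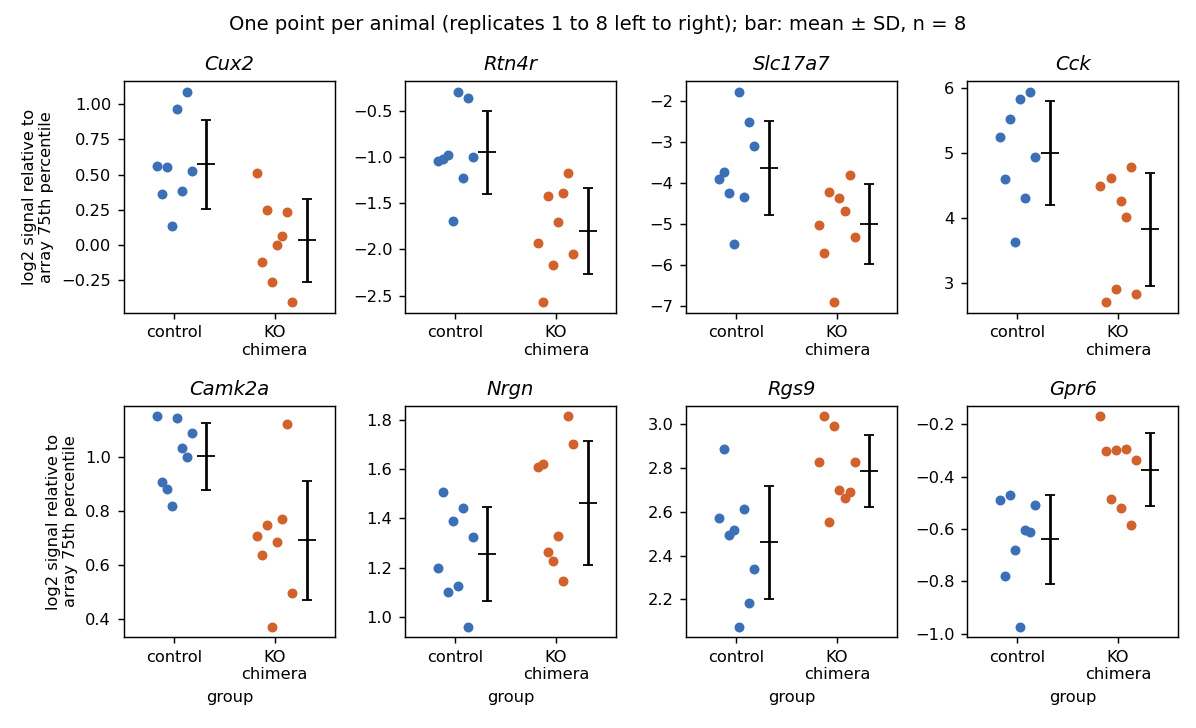
Log2 signal after subtraction of the array's 75th percentile (y axis) of 8 of the genes in control mice (blue) and KO chimeras (orange), with 1 point per mouse in the order of the replicate numbers and the mean ± SD (n = 8) in black. The y axes differ between panels and do not start at 0; all 8 KO chimeras lie below the control median in Cux2, Rtn4r and Cck, and above it in Rgs9 and Gpr6, yet the groups overlap in every panel.

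Larger differences that did not pass were found in Slc17a7 and Cck. Slc17a7, the vesicular glutamate transporter of cortical and hippocampal neurons, ranged from −5.47 to −1.76 (median −3.81) in control mice and from −6.90 to −3.81 (median −4.84) in KO chimeras. The difference was −1.37 ± 0.49 (SE, limma adjusted p = 0.125). The probe stood well above background in 7 control mice and 3 KO chimeras, which leaves the size poorly measured, and with normexp background correction it was −0.27. Cck, the cholecystokinin peptide gene, was bright in every mouse, from 3.62 to 5.94 (median 5.09) in control and from 2.71 to 4.79 (median 4.13) in KO chimeras. The Cck difference was −1.17 ± 0.38 (SE, limma adjusted p = 0.0939). In both genes the highest control mice were again replicates 5 and 7, at −1.76 and −2.50 for Slc17a7 and 5.82 and 5.94 for Cck. The spread between mice of the same group was wide, with within-group SDs of 1.08 and 0.83, against a median of 0.20 and a 90th percentile of 0.48 over all genes.

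Camk2a, the calcium/calmodulin-dependent kinase subunit of forebrain synapses, was the cortical gene closest to the threshold among those that missed it. Its tested probe ranged from 0.82 to 1.15 (median 1.02) in control mice and from 0.37 to 1.12 (median 0.70) in KO chimeras. In KO chimera replicate 7 it was 1.12, within the control range, while the 7 other KO chimeras lay below the lowest control mouse. The difference was −0.31 ± 0.090 (SE, limma adjusted p = 0.0610; 0.0246 without KO chimera replicate 7). A second Camk2a probe measured −0.0036 (limma adjusted p = 0.991 when every probe was tested), so the value of this gene depends on the probe. Tiam1, an activator of the small GTPase Rac, measured −0.28 ± 0.13 (limma adjusted p = 0.232), and the basic helix-loop-helix factors Bhlhe22 and Neurod2 measured −0.26 and −0.25 (limma adjusted p = 0.415 and 0.649). Tbr1, a T-box factor of deep-layer neurons, measured −0.44 ± 0.31 (limma adjusted p = 0.447), and KO chimera replicate 2 was far below the other 7 KO chimeras at −2.21.

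The remaining cortex and hippocampus genes had positive or near-zero differences, and none of them passed. Fezf2, a zinc finger factor of subcortically projecting neurons, measured 0.45 ± 0.29 (limma adjusted p = 0.407), on a probe well above background in 7 control mice and 6 KO chimeras, with KO chimera replicate 4 highest at −1.95. Nrgn encodes neurogranin, a calmodulin-binding protein of dendrites, and measured 0.21 ± 0.11 (limma adjusted p = 0.287; 95% interval −0.021 to 0.44). It ranged from 0.96 to 1.51 in control mice and from 1.15 to 1.82 in KO chimeras, with 4 KO chimeras above the highest control mouse. Lamp5, a lysosome-associated membrane protein of cortical neurons, and Mef2c, a MADS-box factor, each measured 0.19, with 95% intervals of −0.18 to 0.56 and −0.14 to 0.51. Prox1, a factor of dentate granule cells that thalamic and hypothalamic cells also use, measured −0.011 ± 0.21 (95% interval −0.45 to 0.42).

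The 3 genes that were too dim to test are Neurod6, Emx1 and Emx2, transcription factors of the cortical excitatory lineage. Neurod6 was well above background on 5 control and 1 KO chimera arrays, Emx1 on 3 and 2, and Emx2 on 0 and 1. Without the filter on dim probes they measured −0.44, 0.26 and 0.38 (limma adjusted p = 0.480, 0.410 and 0.561).

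Among the striatum genes, Rgs9 and Gpr6 had the smallest p-values, both with higher values in KO chimeras and neither past the threshold. Rgs9 encodes a regulator of G-protein signalling that shortens dopamine receptor signals. It ranged from 2.07 to 2.89 (median 2.51) in control mice and from 2.56 to 3.04 (median 2.76) in KO chimeras, all 8 of which lay above the control median. The difference was 0.33 ± 0.11 (SE, limma adjusted p = 0.0905; 0.0431 without control replicate 2), and control replicates 5 and 7 were the lowest mice at 2.07 and 2.18. The other 3 Rgs9 probes, of which the one at 109086669 overlaps the tested probe at 109086675, gave 0.28, 0.26 and 0.28. Within the slides the Rgs9 difference was 0.039, 0.27, 0.49, 0.62 and 0.23.

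Gpr6, an orphan receptor of indirect-pathway neurons whose upstream sequence is printed above, ranged from −0.97 to −0.47 (median −0.61) in control mice and from −0.58 to −0.17 (median −0.32) in KO chimeras. Of the KO chimeras, 5 lay above the highest control mouse and all 8 above the control median. The difference was 0.27 ± 0.080 (SE, limma adjusted p = 0.0712), and it passed when probes had to be above background in every mouse (limma adjusted p = 0.0496). The scan days gave 0.39 and 0.14, a contrast that did not pass the limma interaction test over all genes (adjusted p = 0.971).

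The dopamine receptors themselves measured 0.24 ± 0.15 (Drd1) and 0.12 ± 0.12 (Drd2), with limma adjusted p of 0.390 and 0.617. Drd1 ranged from −2.96 to −2.06 in control mice and from −2.91 to −2.01 in KO chimeras, nearly the same span. Ppp1r1b, the phosphatase inhibitor DARPP-32 on which dopamine and cAMP signals converge, measured 0.12 ± 0.060 (limma adjusted p = 0.279). It was the steadiest of the 26 genes, with a within-group SD of 0.10. Adora2a, the adenosine receptor of indirect-pathway cells, measured −0.090 ± 0.15 (95% interval −0.41 to 0.23).

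The peptide genes Penk (proenkephalin) and Tac1 (the precursor of substance P) were bright in every mouse and differed by −0.028 ± 0.097 and −0.053 ± 0.13. The phosphodiesterase gene Pde10a, the retinoic acid receptor gene Rarb and the zinc finger factor Bcl11b measured 0.024, −0.042 and 0.034. With 95% intervals no wider than ±0.32 around 0, these 5 genes allow differences of up to that size. The limits of the intervals lay at −0.32 for Tac1 and at 0.31 for Bcl11b.

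Foxp1, a forkhead factor of striatal and many other neurons, gave different values on its probes. The tested probe (chromosome 6, 98880084 to 98880143) ranged from 2.49 to 3.46 in control mice and from 2.06 to 3.08 in KO chimeras, a difference of −0.34 ± 0.16 (limma adjusted p = 0.247). The other probes above background gave −0.32, −0.059 and 0.52, the last at 99112925 to 99112984 (limma adjusted p = 0.0895 when every probe was tested). No statement on the gene as a whole can be made from these probes. Across the list, 8 genes had several probes and 7 had several above background: the probes of Cux2 and Rgs9 gave 1 direction each, and those of Camk2a, Foxp1, Rarb and Bcl11b did not give the same value or sign.

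**Figure D3:**
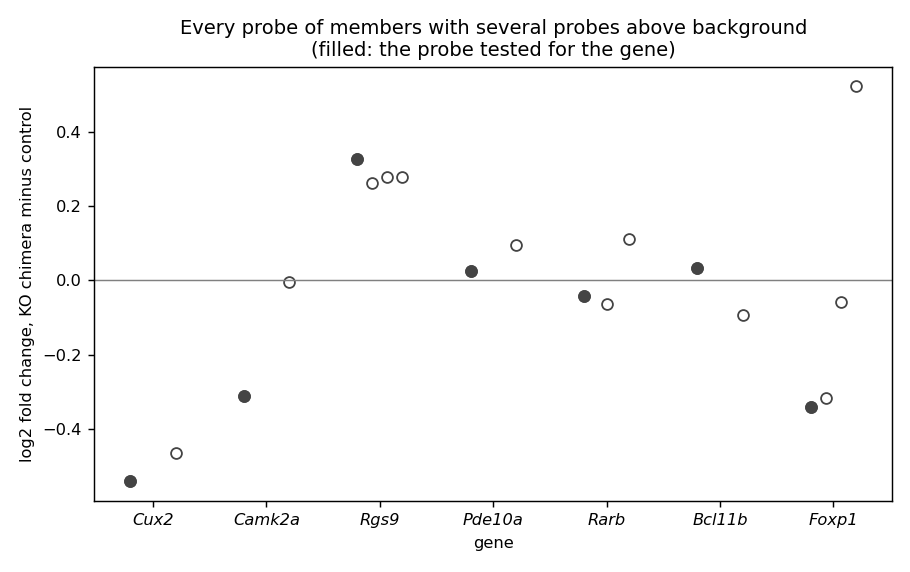
Log2 fold change (y axis, KO chimera minus control) of every probe above background for the 7 genes with several such probes (x axis), the tested probe filled. The Rgs9 probes lie between 0.26 and 0.33 and the Cux2 probes at −0.54 and −0.46, while the Foxp1 probes spread from −0.34 to 0.52 and the Camk2a probes lie at −0.31 and −0.0036.

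Further lists of genes of the same neurons and pathways are given by their counts, beside 3.8% of all genes past the threshold and 20.7% at an unadjusted p under 0.05 in limma. Of 19 further cortex and hippocampus genes tested, 1 was higher and 1 lower, and 5 had an unadjusted p under 0.05, with a median difference of −0.13. Zbtb20, a zinc finger factor of hippocampal neurons and of glia, measured 0.33 ± 0.066 (limma adjusted p = 0.0160), and Arc, an immediate early gene of active synapses, −0.44 ± 0.11 (limma adjusted p = 0.0395). Of 21 further striatum genes, 2 were higher and 1 lower, and 10 had an unadjusted p under 0.05, with a median of −0.013. The kappa opioid receptor gene Oprk1 measured 0.44 ± 0.089 and Gprin3 0.26 ± 0.067, and Strip2 measured −0.38 ± 0.096 (limma adjusted p = 0.0180, 0.0423 and 0.0388). Of 6 direct-pathway genes 0 passed (2 at an unadjusted p under 0.05), and of 6 indirect-pathway genes 1 did, which is Gprin3, already counted above. The pathway lists include the members Drd1, Tac1, Drd2, Adora2a, Gpr6 and Penk and share other genes with the further striatum list, so they are not independent of either. The medians of these lists were 0.062 and 0.046.

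Of 19 genes of dopamine and cAMP signalling (3 of them members: Ppp1r1b, Pde10a and Rgs9), 1 was lower and 0 were higher, with a median of −0.14 and 15 negative values. The gene was Gnal, the G-protein alpha subunit that couples striatal dopamine receptors to adenylyl cyclase, at −0.39 ± 0.083 (limma adjusted p = 0.0200). Of 20 genes of calcium, calmodulin and the postsynapse (Camk2a and Nrgn among them), 2 were lower and 0 higher, with a median of −0.13 and 18 negative values. These were the calcineurin subunit gene Ppp3r1 at −0.35 ± 0.058 and the kinase gene Camk4 at −0.36 ± 0.080 (limma adjusted p = 0.00817 and 0.0238). Of 18 genes common to all neurons, 1 was lower and 0 higher, with 17 negative values and a median of −0.13.

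Markers of thalamus, oligodendrocytes and microglia were also among the genes lower in KO chimeras: 3 of 16, 4 of 13 and 3 of 13 passed. The cortex and hippocampus count was 2 of 14, and 2.77% of all genes passed as lower. Of 17 thalamus markers, 16 were tested (Cabp7 was not), and 14 of these were well above background on all arrays. Of the 16, 15 had a negative difference and 3 passed as lower (8 at an unadjusted p under 0.05 in limma). Their median difference was −0.66. The mean of the 16 centred log2 values ranged from −0.82 to 1.30 in control mice and from −1.25 to 0.25 in KO chimeras. It was highest in control replicates 7 and 5 at 1.30 and 1.23, the mice that were also highest for Cux2, Rtn4r and Cck. It was lowest in KO chimera replicates 2 and 8 and control replicate 4. Prkcd, a protein kinase C abundant in thalamus, was 1 of the 3 lower genes, at −1.87 ± 0.49 (SE, limma adjusted p = 0.0430). It ranged from −0.68 to 3.06 in control mice and from −1.70 to 0.038 in KO chimeras. Of 13 oligodendrocyte genes 4 were lower and 0 higher (7 at an unadjusted p under 0.05 in limma), with 11 negative values and a median of −0.25. Their score ranged from −0.13 to 0.44 in control mice and from −0.28 to 0.055 in KO chimeras. Of 13 microglia genes 3 were lower and 0 higher (7 at an unadjusted p under 0.05 in limma), with 11 negative values and a median of −0.21. The microglia score ranged from −0.018 to 0.26 in control mice and from −0.23 to −0.026 in KO chimeras. Of 10 ependyma and tanycyte genes, the cells that line the third ventricle, 10 had a positive difference with a median of 0.47, while 0 passed (5 at an unadjusted p under 0.05 in limma). Their score ranged from −0.84 to 0.44 in control mice and from −0.042 to 0.73 in KO chimeras. Of the 29 hypothalamus genes 22 had a positive difference, with a median of 0.17, and their score ranged from −0.39 to 0.27 in control mice and from −0.14 to 0.50 in KO chimeras. The part of thalamus, oligodendrocyte, microglia, ependyma and hypothalamus markers in the differences of the cortex and hippocampus genes was not tested.

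How the genes varied from mouse to mouse within a group was examined next, on values from which the mean of each group had been subtracted (n = 16). Each gene was read at its tested probe only. For Foxp1 and Camk2a, whose probes differed, the correlations therefore hold for that probe and not for the gene as a whole. The Slc17a7 probe stood well above background in 7 control mice and 3 KO chimeras, so its correlations within KO chimeras rest largely on dim signal. The 6 pairs planned among Neurod6, Adora2a, Prkcd and the myelin gene Mbp gave 0 correlations past an adjusted p of 0.05 (2 at an unadjusted p under 0.05). The strongest were Mbp with Prkcd (Pearson's r = −0.62, permutation p = 0.0286, adjusted 0.0857; Spearman's rho = −0.61, permutation p = 0.0240, adjusted 0.104) and Prkcd with Neurod6 (r = 0.56, p = 0.0248, adjusted 0.0857; rho = 0.54, permutation p = 0.0346, adjusted 0.104). Without the 2 mice farthest from the median the r values were −0.34 and 0.50. Mbp itself measured 0.070 ± 0.073 (SE, limma adjusted p = 0.621), whereas 11 of the 13 oligodendrocyte genes had a negative difference. It was lowest in control replicates 7 and 5 (2.96 and 3.03), whose oligodendrocyte scores of 0.29 and 0.44 were high. The correlations of Mbp therefore do not stand for the oligodendrocyte list.

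Since Neurod6 was dim, each of the 26 tested genes was then set against Prkcd, a choice made after the values were seen. Of the 26, 11 gave an adjusted permutation p under 0.05 for Pearson's r, 9 positive and 2 negative, and 10 for Spearman's rho. The share of all genes tested that would pass against Prkcd was not determined, so the count of 11 cannot be called particular to these genes. All 11 had the same sign within control mice and within KO chimeras. The positive ones were Slc17a7 (r = 0.89), Rtn4r (0.88), Tiam1 (0.85), Cux2 (0.82), Cck (0.80), Mef2c (0.69) and Camk2a (0.63) of the cortex and hippocampus genes and Pde10a (0.79) and Foxp1 (0.68) of the striatum genes. Rgs9 (r = −0.85) and Penk (−0.65) were the negative ones. The adjusted permutation p of r lay between 0.00026 and 0.0212 for the 9 positive genes, and that of rho between 0.00039 and 0.00952.

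Rtn4r, with r = 0.88 (permutation p = 2e-05, adjusted 0.00026) and rho = 0.89 (permutation p = 3e-05, adjusted 0.00039), kept r = 0.83 without the 2 mice farthest from the median of Prkcd. It had r = 0.85 and 0.97 within the scan days. Rgs9 had r = −0.85 (permutation p = 0.00018, adjusted 0.000936) and rho = −0.89 (permutation p = 5e-05, adjusted 0.000433), with r = −0.75 without those 2 mice and −0.83 and −0.93 within the scan days. Pde10a, whose groups differed by 0.024 ± 0.13 (SE), had r = 0.79 (permutation p = 0.00035, adjusted 0.00152) and rho = 0.80 (permutation p = 0.00066, adjusted 0.00286), and r = 0.76 without those 2 mice. Penk rested more on them: its rho of −0.55 missed the threshold (permutation p = 0.0409, adjusted 0.0966), and r was −0.41 without them. Tbr1, Neurod2, Bhlhe22, Fezf2, Lamp5, Nrgn and Prox1 of the cortex and hippocampus genes and both dopamine receptors did not pass, with r from −0.43 (Nrgn) to 0.61 (Prox1, permutation p = 0.0233, adjusted 0.0504).

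**Figure D4:**
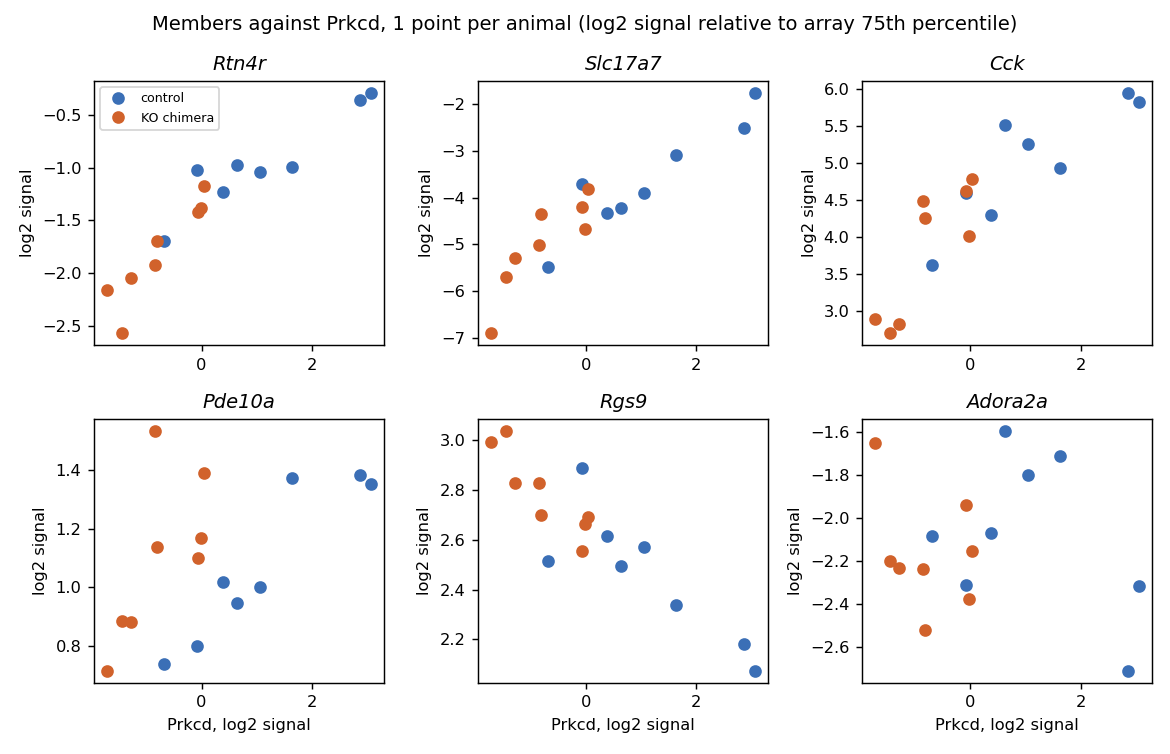
Log2 signal (array's 75th percentile subtracted) of 6 of the genes (y axes) against that of Prkcd (x axes), 1 point per mouse, control mice in blue and KO chimeras in orange. Rtn4r, Slc17a7 and Cck rise with Prkcd and Rgs9 falls with it within each group; the 2 control mice with Prkcd near 3 are replicates 5 and 7, and Adora2a shows no such order (r = −0.36, permutation p = 0.232).

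Some of the cortical and hippocampal genes varied together across mice and others did not. All pairs of the genes had been planned as a description of r without p-values, and the permutation p-values were added to that plan. The genes named below were read from these same correlations, and the share of passing pairs among other genes was not determined. Over the 91 pairs of cortex and hippocampus genes the median r was 0.26, and 13 pairs had an adjusted permutation p under 0.05, all 13 positive. For Spearman's rho 8 of these 91 pairs passed. These 13 pairs involve Cux2, Rtn4r, Slc17a7, Cck, Tiam1, Camk2a and Prox1. The closest pairs were Cux2 with Cck (r = 0.89, permutation p = 1e-05, adjusted 0.00162; rho = 0.90, permutation p = 1e-05, adjusted 0.00108) and Rtn4r with Cck (r = 0.88, permutation p = 5e-05, adjusted 0.00325; rho = 0.87, permutation p = 0.00014, adjusted 0.0065). The p of 1e-05 is the smallest that 100000 permutations can give. The p-values were adjusted over all 325 pairs, which share the same 16 mice. For Cux2 with Cck r was 0.91 and 0.86 within the scan days and 0.91 without the 2 mice farthest from the median of Cux2.

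Over the 66 pairs of striatum genes the median r was −0.039, and 3 pairs passed, all negative: Penk with Foxp1 (r = −0.75), Penk with Pde10a (−0.73) and Rgs9 with Pde10a (−0.68), at adjusted permutation p of 0.0259, 0.0287 and 0.0491. For Spearman's rho 0 of these 66 pairs passed. No pair of direct-pathway or indirect-pathway genes was among them. Of the 168 pairs with 1 gene of each kind 15 passed, 9 positive and 6 negative, and 12 passed for rho. In these, the tested probes of Foxp1 and Pde10a went with the cortical genes (Cck with Foxp1 r = 0.86, Cux2 with Pde10a 0.86). Those of Rgs9 and Penk went against them. The most negative was Prox1 with Penk (r = −0.90, permutation p = 2e-05, adjusted 0.00217; rho = −0.90, permutation p = 2e-05, adjusted 0.00162).

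**Figure D5:**
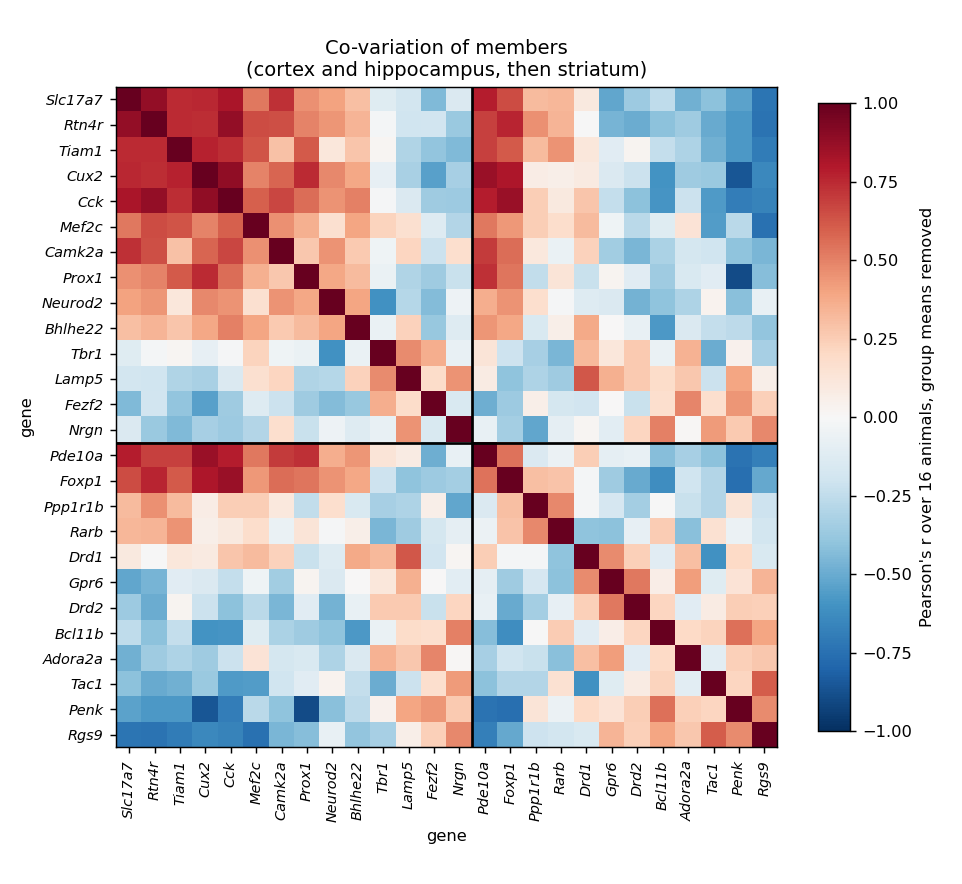
Pearson's r over 16 mice, with group means removed, for every pair of the 26 tested genes (both axes list the genes, cortex and hippocampus genes first, the black line divides them from the striatum genes, and within each kind they are ordered by r with Prkcd). The upper left block from Slc17a7 to Camk2a and the rows of Pde10a and Foxp1 are red, up to 0.89 for Cux2 with Cck, and the rows of Penk and Rgs9 are blue against them, down to −0.90 for Prox1 with Penk.

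In spread, the cortex and hippocampus genes stood higher than the striatum genes: the median rank of the within-group SD was at percentile 83.8 among all genes tested for the former and 64.2 for the latter, given here as a description. The lists also differ in signal: 10 of the 14 cortex and hippocampus genes and all 12 striatum genes were well above background on all 16 arrays. The part of signal level in the spread was not tested. The difference between the groups did not depend detectably on scan day for any of the 26 genes (limma interaction term, 0 genes of 24363 past adjusted p 0.05 and 1030 at an unadjusted p under 0.05). The smallest unadjusted p among the 26 was 0.077, for Nrgn. The sign of the difference was the same on both scan days for 21 of the 26 genes and in all 5 slides for 12. Slides 4 and 5 hold 1 mouse of each group, so their values compare individual animals. Slide 1 holds 1 control mouse and 2 KO chimeras, and slide 3 holds 3 control mice and 1 KO chimera. Only slide 6, with 2 and 2, has more than 1 mouse in both groups.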

How the data were processed

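Total RNA was extracted with Trizol and labelled with Cy3, per the labels' protocols. The authors deposited the scanner's processed intensity per spot, background already subtracted, on probes placed on mm9, per the file headers; the submitters' processing notes name Agilent Feature Extraction 10.7. A deposited table of log2 values, whose aligning step no source used here gives, correlated with the scanner's log2 values at 0.9996 or more on each array; its medians were 5.21 to 5.26 and its floor 2.2.

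Control and outlier spots were left out, the 75th percentile over non-control probes was subtracted from log2 intensity, and repeated spots were averaged. Of the 35144 probes that passed the background filter, the one with the highest mean stood for a gene (24363 genes). Names came from accessions (28026 probes), symbols (3418), older symbols (295) or the files (23942). The comparison used limma 3.58.1 (lmFit, eBayes; R 4.3.3) on all genes, with a threshold of 0.05, after a check on simulated data. Correlations used 100000 two-sided permutations within groups. Python 3.11.15 and matplotlib 3.10.9 drew the figures.

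Members and lists were chosen with earlier results of these data known. All 29 members were to be named, with up to 3 genes of each other list by smallest p and the references Prkcd, Mbp and Pomc. Pomc measured 0.59 ± 0.24 (limma adjusted p = 0.168). In limma, 3 of 13 microglia, 1 of 10 astrocyte and 1 of 7 red blood cell genes were lower and 0 higher. Lists for GABA neurons, ependyma, choroid plexus, vessels and pituitary had 0 called (2, 5, 2, 2 and 0 at an unadjusted p under 0.05). Alternatives were other scalings, background corrections, filters, probe rules, a block for slide, day or replicate number, and mice left out. Whether replicate numbers pair the mice was not tested, and the main fit does not use them.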

Additional observations from a re-analysis of the deposited data

Results flagged for a closer look

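Over the 26 tested genes, 52 sets of 8 mice were examined for a mouse that stands apart from its group, which happens by chance in about 1 set in 20. Tbr1 in KO chimera replicate 2 was the only case: it measured −2.21, the next lowest KO chimera −1.003, and the gap took up 0.59 of the range of the group, above the critical value of 0.526 for 8 samples.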

How the results depend on the processing

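The number of genes called was 925. It was 527 with quantile normalization, 535 with the deposited table, 255 with normexp (25 higher, 230 lower), 594 without the filter on dim probes (242 higher, 352 lower), 477 with slide as a fixed block and 2019 at an adjusted p under 0.1. With each array's median subtracted it was 4200 (176 higher, 4024 lower), against 250 higher and 675 lower in the main setting. That scaling moved the median of all genes to −0.13. Within scan day 1 it was 0 (2838 at an unadjusted p under 0.05) and within day 2 it was 7 (limma). With single mice left out it ranged from 361 to 1028, with 539, 361 and 367 when control replicate 1, 5 or 7 was dropped and 437, 582, 404 and 602 when KO chimera replicate 2, 4, 6 or 7 was.

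The 2 cortex and hippocampus calls became 6 with each array's median (adding Slc17a7, Cck, Camk2a and Tiam1) and 4 at an adjusted p under 0.1. They became 1 with quantile normalization, the deposited table, every probe tested, scan day as a block, array weights, or without slide 4 (chosen after seeing the data). They became 0 with normexp, with no filter, with the exact permutation test and within either scan day (5, 5, 5, 2 and 4 at an unadjusted p under 0.05 in limma or, for the third, the permutation test), and 0 to 2 with single mice left out. Cux2 was called in 11 of 35 alternative settings and Rtn4r in 17, and both kept their direction in all 35. Both counts include the main fit read at an adjusted p under 0.1, which a gene called at 0.05 passes by construction. They also include the replicate block, and that of Cux2 includes the fit without slide 4. The median of the 14 genes stayed between −0.33 and −0.20 with mice left out.

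The striatum count of 0 became 1 with probes above background on all arrays (Gpr6) and 2 at an adjusted p under 0.1 (Rgs9 and Gpr6), and was 0 to 1 with single mice left out (Rgs9 without control replicate 2). The striatum median of 0.029 was −0.098 with each array's median, where all genes moved to −0.13, and 0.11 within scan day 1. It was 0.0088 to 0.065 with mice left out. Whether same-numbered mice form pairs was not settled (correlations from −0.075 to 0.24, 3 of 8 control mice closest to the KO chimera of their own number). With the replicate block 4 cortex and hippocampus genes were called. The same block gave 791 genes over all and 0 striatum genes. Of the 26 genes, 18 were called under none of the alternatives and 17 kept their sign under all. What caused these changes was not tested. Dim signal limits Slc17a7, Fezf2, Neurod6, Emx1 and Emx2.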
